A study of Mus musculus with 6 samples.

Results

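A set of 10 heat shock protein and chaperone genes were examined in the mouse cochlea: Hspa1a, Hspa1b, Hsp90aa1, Hspb1, Dnajb1, Hspa8, Hspa5, Hsph1, Cryab and Hspd1. They were chosen by name, with earlier results of these data known. All 10 were among the 25823 genes and unassigned transcripts of the expression table, and all 10 passed the filter on low values that left 19649 for testing. The samples were basilar membrane of the cochlea from C57BL/6 mice, a strain that loses hearing early, and the study looked for transcripts that differ with age-related hearing loss. A young group (age 1 month) and an old group (age 12 months) held 3 samples each, and each sample pooled tissue of 3 mice of the same age. No treatment or engineered allele is named for either group. Age is therefore the only factor in the labels, and the strain's own hearing loss comes with it. RNA was measured by sequencing and given as FPKM, fragments scaled to transcript length and to the depth of the library, so levels of different genes can be set side by side per length.

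Heat shock proteins are molecular chaperones, which bind unfolded or partly folded proteins, keep them from aggregating and help them fold. Many of their genes are switched on by heat shock factors when damaged protein builds up in the cytosol, while those of the endoplasmic reticulum answer to the unfolded protein response. In the inner ear, heat shock proteins are known for their induction by heat, noise and ototoxic drugs and for their protection of hair cells, the sensory cells that turn sound into a nerve signal.

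The start regions of the members show which of them carry the letters these stress factors are known to bind. RefSeq (GRCm38.p6) gave a start for 7 of the 10 members, with none listed for Hsp90aa1, Hspa8 and Cryab. The 250 bases before the start are printed for 4 of them, 5′ to 3′ on the gene's strand, with the fixed letters of a match in capitals. Hspa1b stands for the inducible HSP70 pair and had the lowest fitted log2 change of the members. Hsph1 passed the test with age and holds a match close to its start. Hspd1 holds the longest run of heat shock elements, and Hspa5 is the member with the element of the endoplasmic reticulum stress response.
Hspa1b, chr17:34959239-34959488, minus strand: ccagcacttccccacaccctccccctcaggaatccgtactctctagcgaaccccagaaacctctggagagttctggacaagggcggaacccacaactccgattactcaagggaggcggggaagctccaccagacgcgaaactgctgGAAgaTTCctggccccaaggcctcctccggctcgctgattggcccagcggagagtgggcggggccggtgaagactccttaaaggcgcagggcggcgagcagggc
Hsph1, chr5:149636337-149636586, minus strand: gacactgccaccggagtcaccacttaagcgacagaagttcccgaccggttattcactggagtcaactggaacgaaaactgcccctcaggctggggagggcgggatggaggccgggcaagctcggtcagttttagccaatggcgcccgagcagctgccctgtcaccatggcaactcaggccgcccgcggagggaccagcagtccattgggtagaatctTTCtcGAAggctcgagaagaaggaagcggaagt
Hspd1, chr1:55087933-55088182, minus strand: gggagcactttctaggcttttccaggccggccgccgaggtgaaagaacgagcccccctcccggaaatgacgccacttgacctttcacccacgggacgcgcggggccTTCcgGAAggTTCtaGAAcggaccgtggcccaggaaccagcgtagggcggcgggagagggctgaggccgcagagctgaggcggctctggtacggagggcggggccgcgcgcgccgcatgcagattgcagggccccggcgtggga
Hspa5, chr2:34771840-34772089, plus strand: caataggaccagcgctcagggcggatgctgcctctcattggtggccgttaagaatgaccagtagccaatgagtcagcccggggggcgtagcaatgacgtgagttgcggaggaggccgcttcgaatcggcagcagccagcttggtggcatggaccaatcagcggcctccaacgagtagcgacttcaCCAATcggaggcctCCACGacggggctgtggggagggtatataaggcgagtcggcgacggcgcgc

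The heat shock element was searched as the pair GAANNTTC or TTCNNGAA, each of which reads the same on both strands. One or both pairs were found in 5 of the 7 members (Hspa1a, Hspa1b, Hspb1, Hsph1 and Hspd1), against 12.8% of 32851 RefSeq start regions of the same length. In Hspa1a and Hspa1b the match lay 104 to 97 bases before the start, and in Hsph1 it lay 33 to 26 bases before it. Hspb1 held 2 matches, at 117 to 110 and at 97 to 90 bases before the start. In Hspd1 the pairs overlapped to form a longer run of 3-part forms, in which GAANNTTC and TTCNNGAA share their middle unit, at 144 to 132 and at 139 to 127 bases before the start. The RefSeq start of Hspd1 lay 92 nt inside its most abundant transcript, so the last 92 bases printed for it belong to that transcript. All 250 bases printed for Hspd1 lay within the span of a less abundant transcript, Hspd1-202, which began at 55088243. Either 3-part form was found in 0.466% of all start regions. The endoplasmic reticulum stress element, searched as CCAAT and CCACG with 9 bases between them on both strands, was found in Hspa5 at 65 to 47 bases before the start and in 0.113% of all start regions. In Hspa5 this element lay within the span of a less abundant transcript, Hspa5-201, which began at 34771970. The start regions of Hspa1a and Hspa1b differed at 3 of 250 bases, C44T, T47C and T249G, with the base of Hspa1a first and positions counted from 1 at the 5′ end.

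Of the 10 members, 2 passed the test as lower in the old cochlea, Hsp90aa1 and Hsph1, and 0 as higher (limma, adjusted p under 0.05 over all 19649 genes). Across all genes tested, 3.68% passed as lower and 5.41% as higher. The fitted difference was negative in 8 members and positive in Cryab and Hspb1, with a median of -0.23 on the log2 scale against 0.0087 over all genes tested. The old samples lay wholly below the young ones in 6 members (Hspa1b, Hsp90aa1, Dnajb1, Hspa8, Hspa5 and Hsph1), which 16.0% of all genes did, and wholly above in 0, against 17.5%. At an unadjusted p under 0.05, 6 members were lower and 1 was higher, against 13.0% and 14.5% of all genes. With 3 samples against 3, an exact permutation test of a single gene cannot give a p under 0.1, and the 6 members without overlap all stood at that value.

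**Figure D1:**
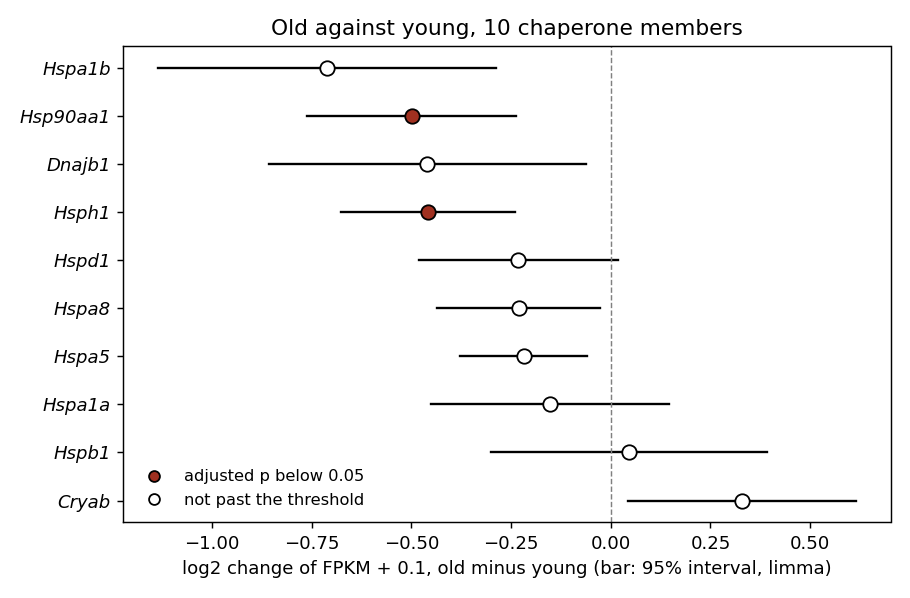
The plot shows the fitted log2 difference of each member, old minus young, as a point with its 95% interval from limma on log2(FPKM + 0.1). Hsp90aa1 and Hsph1 (filled points) passed the adjusted test, and Hspa1b had the lowest estimate (-0.71) with an adjusted p of 0.0525.

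The members that passed the test belong to the HSP90 and HSP110 families of the cytosol. Hsp90aa1 encodes the inducible form of HSP90, which holds kinases and receptors in a shape ready for activation. It was at 346.8, 328.3 and 255.7 FPKM in young samples 1, 2 and 3, and at 217.4, 218.6 and 216.7 FPKM in old samples 1, 2 and 3. Young sample 3 was the lowest of its group, the old samples lay within 2 FPKM of each other, and the groups did not overlap. The means were 310.3 ± 48.2 FPKM (SD, n = 3) in the young group and 217.6 ± 0.964 FPKM (SD, n = 3) in the old, a log2 difference of -0.50 (SE 0.11, 95% interval -0.76 to -0.24, limma adjusted p = 0.0388). This call was lost when any sample other than young sample 3 was left out. The limma adjusted p was 0.0880 without young sample 1, 0.116 without young sample 2, and 0.102, 0.117 and 0.0999 without old samples 1, 2 and 3. Without young sample 3 the difference was -0.63, with an adjusted p of 0.00709.

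Hsp90aa1 was set beside its close relative Hsp90ab1, the HSP90 form that most cells make at all times. The ratio of Hsp90aa1 to Hsp90ab1 was 1.12, 1.06 and 0.925 in the young samples and 0.797, 0.839 and 0.829 in the old. All 3 old ratios lay below all 3 young ones. Hsp90ab1 itself averaged 298.9 ± 19.6 FPKM (SD, n = 3) in the young group and 264.9 ± 6.81 FPKM (SD, n = 3) in the old and did not pass the test (log2 difference -0.17, limma adjusted p = 0.151).

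Hsph1 encodes HSP110 of the cytosol, which swaps the nucleotide of HSP70 and helps to take aggregates apart. Its levels were 29.5, 32.0 and 29.4 FPKM in the young samples and 21.7, 20.1 and 24.5 FPKM in the old. The groups were apart by more than the spread within either one. The means were 30.3 ± 1.49 FPKM (SD, n = 3) and 22.1 ± 2.22 FPKM (SD, n = 3), a log2 difference of -0.46 (SE 0.093, 95% interval -0.68 to -0.24, limma adjusted p = 0.0310). The call was lost without young sample 1 (limma adjusted p = 0.0686), young sample 2 (0.0979), old sample 1 (0.0847) or old sample 2 (0.107). It was kept without young sample 3 (0.0475) or old sample 3 (0.0498).

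**Figure D2:**
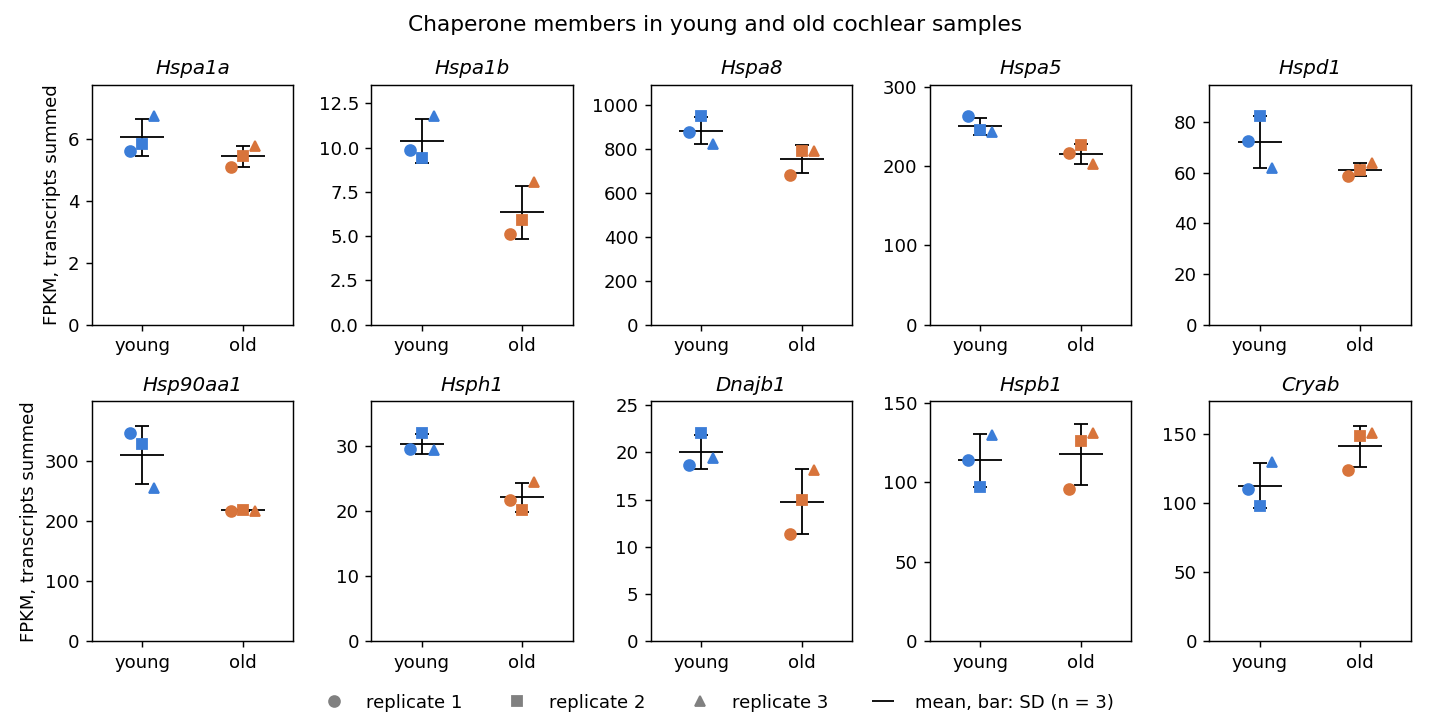
Each panel shows 1 member's FPKM in the 3 young and 3 old samples as points on an axis that starts at 0, with a horizontal line at each group's mean and a vertical bar for the SD (n = 3). The old points sit below all young points for 6 members, including Hsp90aa1 and Hsph1, while those of Hspa1a, Hspd1, Hspb1 and Cryab overlap.

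The inducible HSP70 genes Hspa1a and Hspa1b are a pair of neighbouring copies that make nearly the same protein, and they are the classical readout of heat shock. In GRCm38, Hspa1b lies at chr17:34956436-34959238 and Hspa1a at chr17:34969190-34972156, both on the minus strand with 1 exon each and 9951 nt apart. Hspa1b was at 9.87, 9.43 and 11.8 FPKM in the young group against 5.15, 5.91 and 8.04 FPKM in the old. Its highest old sample lay below its lowest young one. The means were 10.4 ± 1.25 FPKM (SD, n = 3) and 6.37 ± 1.496 FPKM (SD, n = 3), a log2 difference of -0.71 (SE 0.18, 95% interval -1.14 to -0.29), and the limma adjusted p of 0.0525 missed the threshold. Over the 18 alternatives this p ranged from 0.0359 to 0.161, and it was 0.0498 without old sample 3.

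Hspa1a was at 5.61, 5.87 and 6.75 FPKM in the young group against 5.10, 5.45 and 5.80 FPKM in the old. Old sample 3 lay above young sample 1, so the groups overlapped. Its log2 difference was -0.15 (SE 0.13, 95% interval -0.45 to 0.15, limma adjusted p = 0.485). The ratio of Hspa1b to Hspa1a was 1.76, 1.61 and 1.74 in the young samples and 1.01, 1.08 and 1.38 in the old.

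The split between these copies is uncertain. Their transcripts were identical at 93.6% of 2735 aligned bases, and 39.7% of the 150-base windows of Hspa1a and 40.5% of those of Hspa1b also occurred in another gene's transcript. The fragments behind the values were estimated at 172 to 229 per sample for Hspa1a and 163 to 369 for Hspa1b. Added up as 1 feature, Hspa1a and Hspa1b were at 15.5, 15.3 and 18.5 FPKM in the young group against 10.3, 11.4 and 13.8 FPKM in the old. The summed levels did not overlap, and the log2 difference of -0.48 (SE 0.14) did not pass the test (limma adjusted p = 0.0719, 0.0523 to 0.194 over the alternatives).

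Hspa8 encodes the constitutive HSC70, which folds new proteins and strips clathrin from vesicles, and it was the most abundant member. It was at 878.4, 950.4 and 824.9 FPKM in the young group against 681.5, 790.2 and 791.1 FPKM in the old. All old samples were below all young ones, by a margin smaller than the SD of either group. The log2 difference was -0.23 (SE 0.088, 95% interval -0.44 to -0.03) and did not pass the test (limma adjusted p = 0.142). The summed inducible pair came to 1.76%, 1.61% and 2.25% of Hspa8 in the young group against 1.505%, 1.44% and 1.75% in the old. These shares overlapped, and the log2 ratio of the pair to Hspa8 averaged -5.75 ± 0.25 (SD, n = 3) in the young and -6.0 ± 0.15 (SD, n = 3) in the old (exact two-sided permutation test, p = 0.2).

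Dnajb1 encodes an HSP40 of the cytosol, which hands clients to HSP70 and starts its ATPase. Its levels were 18.7, 22.1 and 19.4 FPKM in the young samples and 11.3, 14.9 and 18.1 FPKM in the old. Old sample 3 came close to the young range, which the old group did not enter. Its log2 difference was -0.46 (SE 0.17, 95% interval -0.86 to -0.06, limma adjusted p = 0.133), nearly the same estimate as that of Hsph1 with a larger error.

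Hspb1 and Cryab encode small heat shock proteins, which hold unfolding proteins without using ATP. Cryab, αB-crystallin, is also abundant in the lens and in muscle. Cryab was at 109.7, 97.6 and 129.7 FPKM in the young group against 123.5, 148.0 and 150.6 FPKM in the old. Young sample 3 lay above old sample 1, and the other old samples lay above all young ones. The log2 difference was 0.33 (SE 0.12, 95% interval 0.04 to 0.61) and did not pass the test (limma adjusted p = 0.134). Hspb1 was at 114.2, 97.0 and 129.9 FPKM in the young group against 95.5, 126.1 and 131.1 FPKM in the old. Both groups held a sample under 100 FPKM, and the log2 difference was 0.04 (SE 0.15, 95% interval -0.30 to 0.39, limma adjusted p = 0.873), with a sign that flipped under quantile normalization.

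Hspa5 encodes BiP, the HSP70 of the endoplasmic reticulum and a sensor of its unfolded proteins. It was at 262.9, 245.1 and 242.5 FPKM in the young group against 216.3, 226.8 and 202.0 FPKM in the old. The groups did not overlap. A log2 difference of -0.22 (SE 0.068, 95% interval -0.38 to -0.06) missed the threshold (limma adjusted p = 0.0873). Under quantile normalization it was -0.30, with an adjusted p of 0.0439.

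Hspd1 encodes HSP60, the folding chamber of the mitochondrial matrix. Its levels were 72.5, 82.2 and 61.8 FPKM in the young samples and 58.5, 61.0 and 63.7 FPKM in the old. Young sample 3 lay inside the old range. Its log2 difference was -0.23 (SE 0.11, 95% interval -0.48 to 0.02, limma adjusted p = 0.209). Hspd1 and Hspa8 had close to the same estimate, with overlapping groups in Hspd1 and not in Hspa8.

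In the young group, the order of the levels from the top was Hspa8, Hsp90aa1, Hspa5, Hspb1, Cryab, Hspd1, Hsph1, Dnajb1, Hspa1b and Hspa1a. The ranges of Hsp90aa1 and Hspa5 overlapped, as did those of Hspb1 and Cryab, and the other neighbours were apart. In the old group Cryab stood above Hspb1. There the ranges overlapped for Hsp90aa1 with Hspa5, for Cryab with Hspb1 and for Hspa1b with Hspa1a. By mean FPKM, Hspa8 ranked 69th and Hspa1a 9889th of the 19649 genes. The 10 members together made up 0.295% to 0.324% of all FPKM in the young samples and 0.243% to 0.271% in the old.

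Within the old group, sample 1 was the lowest of the 3 in 7 of the 10 members, and sample 3 was the highest in 8. Hspa5 and Hsp90aa1 were exceptions, with their lowest old level in sample 3 and their highest in sample 2. The old levels of Hsp90aa1 were 217.4, 218.6 and 216.7 FPKM, so its order rests on small differences. In the young group, sample 3 was the highest in 4 members and the lowest in 5. The share of all genes that were highest or lowest in each sample was not counted.

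The transcripts behind the gene levels were read next. The table listed 28 transcripts of the members, of which 18 had a mean of at least 1 FPKM. Hspa1a, Hspa1b, Dnajb1 and Cryab each had 1 such transcript. Hsp90aa1 was split between a pair of coding transcripts of nearly equal level. Hsp90aa1-202 was at 172.3, 157.4 and 140.0 FPKM in the young group against 103.8, 124.0 and 118.0 FPKM in the old. Hsp90aa1-201 was at 172.5, 170.9 and 115.6 FPKM in the young group against 113.7, 94.6 and 97.7 FPKM in the old. Each of these transcripts was lower in every old sample than in any young one, and the near identity of the old totals was not shared by either transcript.

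Hspa5 was mostly Hspa5-202, which held 81.7% to 83.8% of the gene in the young samples and 79.7% to 80.8% in the old. Hspa5-201 was at 47.3, 39.6 and 44.4 FPKM in the young group against 41.6, 44.5 and 41.0 FPKM in the old, which overlapped. In Hsph1, the main transcript Hsph1-211 was at 21.4, 19.1 and 21.2 FPKM in the young group against 14.8, 18.4 and 16.7 FPKM in the old. With this transcript alone, the log2 difference of Hsph1 was -0.31 and did not pass the test (limma adjusted p = 0.122). Hsph1-201 ranged from 2.91 to 9.71 FPKM in the young samples and from 0.0024 to 5.48 FPKM in the old, and Hsph1-209 from 1.13 to 3.71 FPKM and from 0.356 to 1.91 FPKM.

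Hspa8-201 made up 97.7% to 99.2% of Hspa8 in all samples. The noncoding Hspa8-203 was at 9.09, 15.05 and 7.02 FPKM in the young group against 6.20, 3.74 and 1.93 FPKM in the old, from an estimated 8.01 to 64.3 fragments, and Hspa8-202 was at 5.52 to 6.03 FPKM in the young and 4.34 to 5.05 FPKM in the old. Hspd1-201 made up 85.3% to 91.2% of Hspd1, with Hspd1-202 at 6.55 to 11.4 FPKM in the young samples and 5.13 to 7.54 FPKM in the old. Hspb1-201 made up 98.8% to 99.4% of Hspb1, and Hspb1-202 averaged 1.01 FPKM in the young group and 1.06 FPKM in the old.

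**Figure D3:**
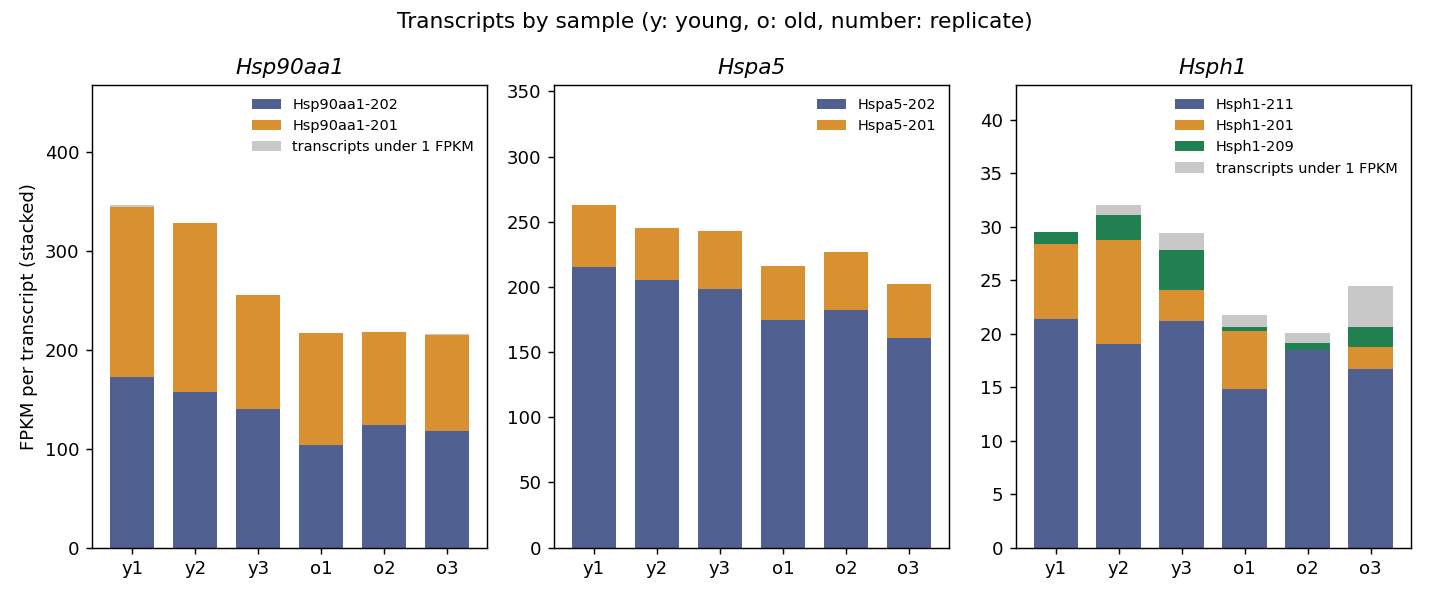
The stacked bars show FPKM by transcript for Hsp90aa1, Hspa5 and Hsph1 in young (y) and old (o) samples, numbered by replicate, on axes that start at 0, with transcripts under a mean of 1 FPKM added up in grey. Hsp90aa1 is split between a pair of transcripts, Hspa5 is mostly Hspa5-202, and Hsph1-201 is estimated at 0.0024 FPKM in old sample 2. In that sample Hsph1-211 has its highest old level (18.4 FPKM), and how fragments were shared out between these transcripts was not tested.

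Sequence shared with other genes can move fragments between them. Of the 10 members, 6 shared 150-base windows with another gene, and the shares were 55.4% for Hspa8, 53.4% for Hspb1, 36.2% for Hsp90aa1 and 18.6% for Hspd1 beside those of the Hspa1 pair. Hsph1, Dnajb1, Hspa5 and Cryab shared none. These are shares of sequence and not errors of level. Outside the members, 10 other genes shared such windows, and 1 of them was listed, at 0.207 to 0.619 FPKM. The levels of the 6 are uncertain for this reason, by an amount that was not tested.

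The members were then set beside 94 other genes of the same system, of which 92 were tested. Among these, 6 were higher and 8 lower with age, 78 did not pass, and the median log2 difference was -0.004. Across all genes tested, 5.41% passed as higher and 3.68% as lower. The groups did not overlap in 20 of the 92 with the old group higher and in 21 with it lower, against 17.5% and 16.0% of all genes.

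Among 32 further chaperones and helpers of the cytosol, 4 passed as lower and 0 as higher, with a median of 0.01. At an unadjusted p under 0.05 limma gave 9 as lower and 5 as higher. Chordc1, a partner of HSP90, was at 42.5, 46.6 and 37.9 FPKM in the young group against 20.3, 20.6 and 22.3 FPKM in the old. Its groups were far apart, with a log2 difference of -0.998 (SE 0.094, limma adjusted p = 0.00763), and the call was kept whichever sample was left out. Ahsa1, which speeds the ATPase of HSP90, fell from 89.6 ± 6.84 to 63.0 ± 4.86 FPKM (SD, n = 3; log2 difference -0.51, limma adjusted p = 0.0222). Hspa4l, a relative of Hsph1, fell from 143.5 ± 15.3 to 103.6 ± 9.84 FPKM (SD, n = 3; log2 difference -0.47, limma adjusted p = 0.0347). Dnaja1, an HSP40 partner of Hspa8, fell from 90.3 ± 7.97 to 68.0 ± 5.77 FPKM (SD, n = 3; log2 difference -0.41, limma adjusted p = 0.0399). Leaving out 1 sample ended the calls of Ahsa1 and Dnaja1 in 5 of 6 cases and that of Hspa4l in all 6.

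Of 6 further small heat shock protein genes, 4 were tested, 1 passed as higher and 0 as lower, with a median of 0.66 and with 2 higher and 0 lower at an unadjusted p under 0.05. Apart from Hspb8, the tested genes were low, with means of 0.497 to 5.35 FPKM over the 6 samples. Hspb8, which works with Bag3 in clearing misfolded protein, was at 54.6, 40.2 and 52.6 FPKM in the young group against 85.3, 87.3 and 96.7 FPKM in the old. The log2 difference was 0.88 (SE 0.12, limma adjusted p = 0.0142), and the call was lost without old sample 2 or old sample 3, with adjusted p-values of up to 0.0613. Cryaa, the lens crystallin, was listed at 0 in all samples.

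Of 20 further genes of the endoplasmic reticulum, 3 were higher and 2 lower, with a median of -0.03. Serpinh1, the chaperone of collagen, fell from 128.5 ± 8.04 to 85.7 ± 1.53 FPKM (SD, n = 3; log2 difference -0.58, limma adjusted p = 0.0116). The summed osteoblast and bone markers, led by Bglap2 and Bglap, were at 330.0, 80.7 and 170.3 FPKM in the young group against 61.8, 75.4 and 81.6 FPKM in the old. Young sample 1 was far the highest, young sample 2 lay inside the old range, and 2 of the 8 genes passed as lower and 0 as higher. Serpinh1 was at 127.8, 120.8 and 136.8 FPKM in young samples 1, 2 and 3, and the part of bone cells in its fall was not tested. Sil1, which swaps the nucleotide of BiP, rose from 51.7 ± 2.74 to 70.6 ± 1.39 FPKM (SD, n = 3; log2 difference 0.45, limma adjusted p = 0.0158). Pdia4, a disulfide isomerase, rose from 86.0 ± 3.10 to 111.9 ± 4.55 FPKM (SD, n = 3; log2 difference 0.38, limma adjusted p = 0.0207). Ppib, a proline isomerase, rose from 101.5 ± 4.43 to 127.8 ± 3.70 FPKM (SD, n = 3; log2 difference 0.33, limma adjusted p = 0.0251). The other gene that passed as lower was Manf. Without old sample 2 none of these 5 passed (limma adjusted p of 0.0561 for Serpinh1). Over the 6 cases of 1 sample left out, Serpinh1 passed in 5, Sil1 in 4, Pdia4 and Ppib in 2 and Manf in 1.

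None of the 11 mitochondrial chaperones and proteases passed the test (limma), with a median of 0.11 and with 2 higher and 0 lower at an unadjusted p under 0.05. Hspa9, the HSP70 of the matrix, was at 105.2 ± 6.15 FPKM (SD, n = 3) in the young group and 108.3 ± 7.32 FPKM (SD, n = 3) in the old. Hspe1, the lid of the HSP60 chamber, was at 96.0 ± 5.24 and 92.5 ± 4.99 FPKM (SD, n = 3). Of 14 genes of TRiC, the folding chamber of the cytosol, and of its partner prefoldin, 1 was lower and 1 higher, with a median of -0.03. Cct8 of TRiC fell from 68.2 ± 4.98 to 53.2 ± 2.90 FPKM (SD, n = 3; limma adjusted p = 0.0369), and Pfdn5 of prefoldin rose from 204.2 ± 6.37 to 255.4 ± 11.7 FPKM (SD, n = 3; limma adjusted p = 0.0268). Each of these calls was kept in 1 of the 6 cases of 1 sample left out.

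Among 11 heat shock factors and regulators of the unfolded protein response, 1 was lower and 1 higher, with a median of -0.07. Hsf2, a heat shock factor, fell from 13.5 ± 1.00 to 9.17 ± 1.37 FPKM (SD, n = 3; log2 difference -0.56, limma adjusted p = 0.0436), and this call was lost whichever of the 6 samples was left out. Ddit3, the factor CHOP of the unfolded protein response, was at 44.7, 45.8 and 42.3 FPKM in the young group against 72.3, 70.0 and 63.1 FPKM in the old. It rose by 0.63 on the log2 scale (SE 0.075, limma adjusted p = 0.0116), a call that was lost without old sample 2 (0.0567), and in the same samples Hspa5 had lower values in the old group.

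**Figure D4:**
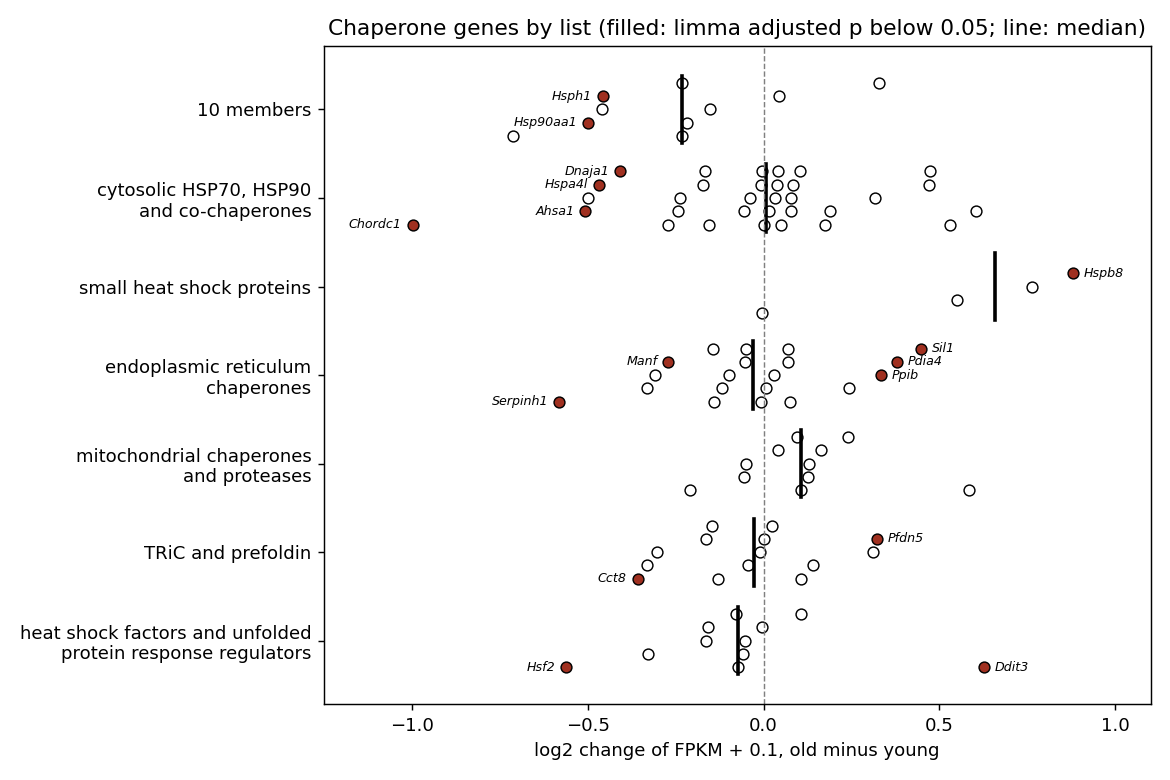
Each point is the fitted log2 difference of 1 gene, old minus young, for the members and for 6 lists of other chaperone genes, with genes past the adjusted threshold filled and named and a line at each list's median. The cytosolic list has 4 filled genes, all below 0 with Chordc1 lowest, and the mitochondrial list has none.

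Levels of cell type markers also differed between the groups, and in bulk tissue fewer cells of a type and less RNA per cell cannot be told apart. All 12 hair cell markers and all 10 supporting cell markers passed the low filter of 0.1 FPKM, as did all 7 erythrocyte and all 8 bone markers. The supporting cell gene Gjb6 averaged 642.7 FPKM in the young group and 669.1 FPKM in the old, and Ocm of outer hair cells 135.2 and 58.4 FPKM. Hair cell markers (led by Calb2 and Ocm) summed to 797.2 to 1046 FPKM in the young group against 451.7 to 516.5 FPKM in the old, with 6 of 12 lower. Calb2, which many neurons also make, held most of this sum. Without it the sum was 267.6, 207.7 and 293.1 FPKM in the young samples and 148.8, 168.0 and 152.9 FPKM in the old ones. Spiral ganglion neuron markers (Snap25 and Nefl) summed to 513.1 to 1011 FPKM and to 341.7 to 371.2 FPKM, with 5 of 8 lower and 0 higher. Prph of this list went the other way at a low level, from 1.55 to 2.60 FPKM in the means. Its groups did not overlap, and its log2 difference of 0.70 did not pass the test (limma adjusted p = 0.0687). A set of 7 Schwann cell and myelin markers (led by Mbp) summed to 882.1, 799.2 and 589.1 FPKM in the young samples and 521.5, 561.0 and 562.3 FPKM in the old ones, with 3 of 7 lower. Macrophage markers (Lyz2 and C1qa) summed to 120.8 to 182.4 FPKM in the young group against 654.3 to 735.2 FPKM in the old, with 8 of 10 higher, while supporting cell markers (Gjb6 and Gjb2, 1416 to 1599 and 1584 to 1720 FPKM) had 1 of 10 higher. Young sample 3 had the lowest Hsp90aa1 of its group (82.4% of the young mean), and it was also the lowest in 7 of 8 neuron markers (65.9% in sum) and in 6 of the 7 Schwann cell and myelin markers (77.8%). With Calb2 included, the hair cell sum was also lowest in young sample 3 (83.1% of the young mean). Without Calb2, young sample 3 had the highest hair cell sum (114%) and was the lowest in 2 of 11 genes. Ocm, at 140.2, 91.9 and 173.5 FPKM in the young samples, was the largest part of that sum. The part of these cell types in the results of the members was not tested.

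**Figure D5:**
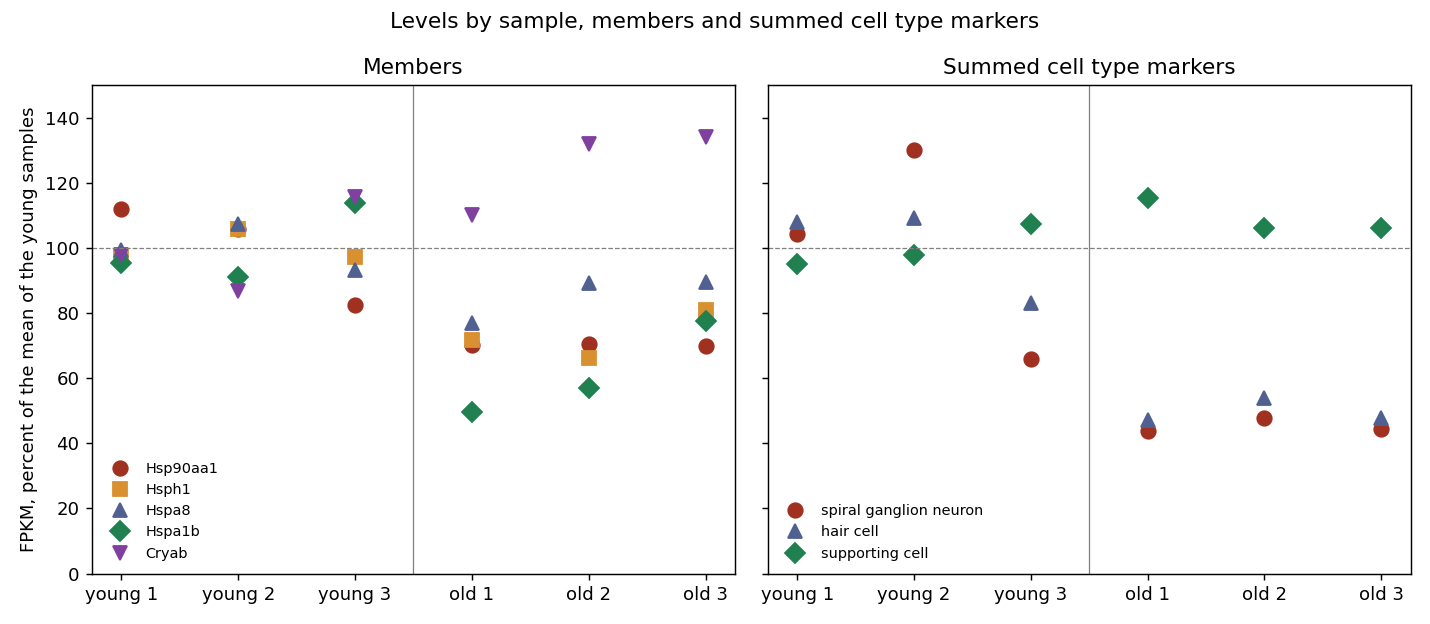
The left panel shows 5 members and the right panel 3 summed marker lists in each sample, as a percent of the mean of the young samples, with Calb2 included in the hair cell sum. The old samples of Hsp90aa1 lie at 69.8% to 70.5%, those of Hspa1b at 49.7% to 77.6% and those of Cryab at 110.0% to 134.1%, while the neuron markers lie at 43.9% to 47.7% in the old samples and at 65.9% in young sample 3.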

How the data were processed

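RNA from the basilar membrane of 3 young and 3 old samples was sequenced by the authors and mapped to the mouse genome (GRCm38). The submitters' processing notes name CASAVA 1.8, TopHat2 2.0.9 and Cufflinks and Cuffdiff 2.1.1. The deposited values are FPKM per transcript, estimated by the authors' software, which shares out fragments that match several transcripts. Of 56671 transcripts, 55275 were matched to GENCODE release 21 for mouse, and their FPKM were summed per gene.

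Genes with a mean of at least 0.1 FPKM were tested with limma 3.58.1 (R 4.3.3; lmFit, eBayes with trend, two-sided) on log2(FPKM + 0.1). P-values were adjusted by Benjamini-Hochberg over all 19649 genes, with a threshold of 0.05. Fold changes on this scale understate the change of low genes. Exact permutation tests gave single values. The procedure was tested on simulated data. The limma results of the members, the summed Hspa1 pair, the other chaperone genes and the counts over all genes were recomputed under 18 alternatives. These were other pseudocounts, filters, scalings and moderation, sample weights, a replicate block, each sample left out, coding transcripts only and the most abundant transcript only. The ratio of the Hspa1 pair to Hspa8 was recomputed only with each sample left out, with coding transcripts only and with the replicate block. Since the table holds no counts, depth was read from the steps between low FPKM values, which gave about 12480000 to 15660000 fragments per sample, with 92.1% to 93.4% of the 1254 to 1396 transcripts used within 0.1 of a whole number. No count test was run, because the FPKM of genes with several transcripts are estimates. Nothing in the labels says that the pools of 1 group came from separate litters or days, so p-values measure only the spread between these samples.

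The members and lists were chosen with earlier results of these data known. Named genes were the 10 members, at most 4 genes past the threshold with the largest change in each other list (where none passed, the 2 with the highest mean), the 2 most abundant genes of each marker list (1 gene is not reported here), the 5 genes most alike to Hspa5 and to the Hspa1 pair, and the members' transcripts with a mean of at least 1 FPKM. Hsp90ab1, Cryaa, Manf and Prph were named after their values were seen, and the hair cell sum without Calb2 was added then. Start regions came from RefSeq (GRCm38.p6).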

Additional observations from a re-analysis of the deposited data

How the results depend on the processing

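Of 180 recomputed member results, 154 kept their direction and their side of the threshold, and 8 members stayed negative in every setting. Hspb1 turned negative under quantile normalization (-0.0376) and ranged from -0.0644 to 0.19 without 1 sample, negative without young 2, old 2 or old 3. Hsp90aa1 passed in 9 of 18 alternatives, Hsph1 in 10, Hspa1b in 4 and Hspa5 in 1. Members past the threshold numbered 1 with no filter, 0 without the trend (limma, 3 lower at an unadjusted p under 0.05), 1 with the most abundant transcript, 0 with the unmoderated statistic (4 lower unadjusted), and 0 to 2 without 1 sample. They numbered 3 with a mean of at least 1 FPKM, quantile normalization, arrayWeights or coding transcripts only. The calls over all genes, 1787 in the main analysis, were 908 with no filter, 392 without the trend, 51 with the unmoderated statistic and 59 to 1756 without 1 sample, lowest without old sample 2, and rose to 2374 with arrayWeights. For the other chaperone genes, 14 in the main analysis, they were 3 without the trend, 0 with the unmoderated statistic, 1 to 15 without 1 sample and at most 19 (arrayWeights), with 17 lower and 14 higher at an unadjusted p under 0.05 in the unmoderated one. The cause of these shifts was not tested. Samples with the same number correlated at 0.03, -0.10 and 0.04 in their deviations, so the numbers were not taken to pair them. With the replicate number as a block, 675 genes, 0 members (6 lower and 1 higher unadjusted) and 5 other chaperone genes passed. Hspa1a and Hspa1b had the fewest estimated fragments of the members, so depth limits them most.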

Other observations

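Immediate early genes, which switch on within minutes of handling or stimulation, were read in the same samples. Their summed level was 68.8 to 116.1 FPKM in the young group and 146.8 to 211.4 FPKM in the old, and 5 of 10 passed as higher and 0 as lower (limma; 9 higher and 0 lower at an unadjusted p under 0.05). Dusp1, a phosphatase, was at 40.3, 24.9 and 34.3 FPKM in the young group against 64.9, 59.8 and 49.1 FPKM in the old (limma adjusted p = 0.0383). Junb, an AP-1 subunit, was at 23.4, 10.8 and 11.6 FPKM in the young group against 40.1, 39.0 and 28.3 FPKM in the old (limma adjusted p = 0.0400). Old sample 1 had the highest sum of these genes and the lowest level of 7 of the 10 chaperones in its group. The share of all genes that were lowest in that sample was not counted. The part of the immediate early genes in the chaperone levels was not tested.

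Among markers of other tissues, those of skeletal muscle (led by Des and Mylpf) summed to 5.73 to 8.72 FPKM in the young group against 9.63 to 31.4 FPKM in the old, highest in old sample 1, and 0 of 9 passed (limma; 2 higher at an unadjusted p under 0.05). Erythrocyte markers (Hbb-bs and Hba-a2) summed to 1434 to 2954 FPKM and to 1369 to 2254 FPKM, and 0 of 7 passed (1 lower unadjusted).

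The genes whose levels over the 6 samples were most like those of the summed Hspa1a and Hspa1b, among 15064 genes, were Cenpw (Pearson r 0.996), Ppm1d (0.996), LNC_000782 (0.994), Dcaf12 (0.993) and Foxs1 (0.992). Ppm1d was at 9.53, 9.53 and 10.7 FPKM in the young group against 6.64, 7.23 and 8.62 FPKM in the old. Those most like Hspa5 were Nrep (0.989), Sema5a (0.988), Slc4a11 (0.988), Dok5 (0.985) and March2 (0.982). Slc4a11 was at 637.0, 543.1 and 530.9 FPKM in the young group against 437.9, 501.2 and 369.5 FPKM in the old. The 6 samples share 2 age groups, and these values are given as a description only.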
